A study of Mus musculus with 2 samples.

Results

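The RNase A family and the lysozymes are small secreted enzymes that were read here as 9 genes of the 31053 in the count tables: the eosinophil-associated ribonucleases *Ear2*, *Rnase2a*, *Ear1*, *Ear6* and *Ear10*, the ribonuclease *Rnase4* and its neighbour *Ang* (angiogenin), and the lysozymes *Lyz1* and *Lyz2*. They were chosen by symbol, with their levels in these libraries already known, so their differences between libraries and between the cells compared are given as descriptions without a test. The samples were macrophages sorted as CD45+Lin-Ly6Clow/-F4/80+ cells from the epididymal fat of male C57/BL6 mice aged 8 to 12 weeks. In the CD group 3 mice stayed on control diet with 11 kcal% fat, and in the HFD group 3 mice ate a high-fat diet with 58 kcal% fat overnight. The 3 mice of a group were pooled into 1 droplet-based library, which leaves 1 unreplicated library on each side. The lineage gate of the sort left out cells with SiglecF, the surface marker of eosinophils, and Ly6G, that of neutrophils, beside T and B cells.

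Ribonucleases of the A family cut RNA outside cells and in secretory granules; rodents hold an expanded set of eosinophil-associated members, which eosinophils and some macrophages make and which have antimicrobial and chemoattractant activity. Angiogenin promotes the growth of blood vessels and cuts transfer RNA under stress, and *Rnase4* and *Ang* share a promoter. Lysozymes cut the peptidoglycan of bacterial cell walls; in mice *Lyz2* is the lysozyme of macrophages and neutrophils, and *Lyz1* that of intestinal Paneth cells.

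The 2 lysozyme genes lay side by side on the minus strand of chromosome 10 in GRCm38, *Lyz2* (ENSMUSG00000069516) from 117277331 to 117282321 and *Lyz1* (ENSMUSG00000069515) from 117287797 to 117292868, with 5475 bases between them. The ribonucleases were on chromosome 14, *Ear2* (ENSMUSG00000072596) from 44102654 to 44103534 on the plus strand and *Ear1*, *Ear10*, *Rnase2a* and *Ear6* elsewhere along it. *Ang* (ENSMUSG00000072115, 51091150 to 51102009) lay inside the span of *Rnase4* (ENSMUSG00000021876, 51091077 to 51106151) on the same strand. Stretches of 149 to 169 bases upstream of the starts given by RefSeq, on GRCm38.p6 and written 5' to 3', are shown to set each gene beside its paralog. For *Lyz2* the stretch ended 50 bases before the start given by RefSeq, which lies downstream of the GRCm38 start above, and capitals mark GGAAGT on either strand (read as ACTTCC), a core that ETS factors such as PU.1 bind. For *Lyz1*, *Ear10* and *Rnase2a* capitals mark the bases that differ from the paralog, and for *Rnase4* and *Ang*, which share the stretch, capitals mark GGAAGT. That of *Ear2* held none.
Lyz2 (chr10:117282323-117282472, minus strand): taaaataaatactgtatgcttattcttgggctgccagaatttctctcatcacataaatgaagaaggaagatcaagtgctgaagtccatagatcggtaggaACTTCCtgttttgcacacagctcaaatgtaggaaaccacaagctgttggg
Lyz1 (chr10:117292919-117293067, minus strand): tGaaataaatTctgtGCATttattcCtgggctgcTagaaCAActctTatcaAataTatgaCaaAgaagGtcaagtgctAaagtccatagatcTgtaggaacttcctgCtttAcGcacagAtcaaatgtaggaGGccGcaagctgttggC
Ear2 (chr14:44102504-44102653, plus strand): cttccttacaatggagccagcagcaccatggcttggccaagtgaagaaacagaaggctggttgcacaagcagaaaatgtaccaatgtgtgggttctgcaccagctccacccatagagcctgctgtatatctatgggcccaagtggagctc
Ear10 (chr14:43923601-43923750, minus strand): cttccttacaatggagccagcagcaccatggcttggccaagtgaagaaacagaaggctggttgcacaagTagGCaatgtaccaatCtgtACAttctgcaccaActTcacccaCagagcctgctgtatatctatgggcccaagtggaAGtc
Rnase2a (chr14:51256138-51256306, minus strand): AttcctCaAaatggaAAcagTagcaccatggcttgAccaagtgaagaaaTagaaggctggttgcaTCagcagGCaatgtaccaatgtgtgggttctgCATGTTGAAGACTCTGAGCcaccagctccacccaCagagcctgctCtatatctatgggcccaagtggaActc
Rnase4 and Ang (chr14:51090927-51091076, plus strand): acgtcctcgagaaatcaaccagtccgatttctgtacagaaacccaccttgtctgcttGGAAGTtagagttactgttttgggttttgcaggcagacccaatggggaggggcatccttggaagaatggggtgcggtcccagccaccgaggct
*Lyz1* matched the *Lyz2* stretch at 122 of 150 aligned bases (81.3%), with the same motif. The stretch at *Ear1* (chr14:43819642-43819791, minus strand) was identical to that at *Ear2* over all 150 bases, *Ear10* matched 138 of 150 (92.0%) and *Rnase2a* 135 of 169 aligned bases (79.9%). The stretches of *Lyz1*, *Rnase2a*, *Ear10* and *Ear1* ended 50, 25, 4 and 2 bases before the RefSeq start. In the gene annotation *Ear1* spans 43818765 to 43875517, so its stretch lay inside that span and not upstream of it. Over the 250 bases before the start, GGAAGT on either strand was in 5 of the 9 genes (*Ear10*, *Rnase4*, *Ang*, *Lyz1* and *Lyz2*) and in 19.7% of 32851 RefSeq promoters. TATAAA on either strand was in 0 of the 9 and in 12.4% of those promoters. These are matches of letters in a window and show no binding.

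Because reads that match several genes are not counted, the paralogs were compared over windows of 90 bases of their transcripts. The coding sequences of *Lyz1* and *Lyz2* were identical at 422 of 444 bases, yet in the last 500 bases, where 3' libraries place their reads, only 15 of 411 windows (3.65%) were shared. *Ear2* had 97.0% identity with *Ear10* and 95.1% with *Ear1* in the coding sequence, and 9.73% of its windows in the last 500 bases were found in another gene. For *Ear1* this share was 26.3 to 36.0% and for *Ear10* 25.5 to 39.8%, by transcript, so a part of their reads could not be assigned and their levels are uncertain. *Rnase2a*, *Ear6*, *Rnase4* and *Ang* had 0 shared windows there.

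Cells were kept with 200 to 3500 detected genes and at most 10% mitochondrial UMIs (unique molecular identifiers, 1 for each captured transcript). This left 2364 of 4459 CD barcodes, with 12284010 UMIs and a median of 4490.5 UMIs per cell, and 2021 of 3163 HFD barcodes, with 8086475 UMIs and a median of 2792. Levels are UMIs of a gene per 1000000 UMIs of the cells named (CPM), with 95% exact Poisson intervals, and intervals on ratios and shares are exact binomial ones. All intervals cover counting error only, since the mice were pooled. The libraries shared 14 barcode sequences, 7 of them among kept cells. All 7 macrophage markers had UMIs, and 99.2% of CD and 96.2% of HFD cells had a UMI of 1 or more of them. Of 6 eosinophil markers, *Prg2*, *Epx*, *Prg3* and *Il5ra* were at 0 UMIs in both libraries, and the list summed to 2.69 CPM in CD and 2.10 CPM in HFD. Of 8 neutrophil markers *Ly6g* and *Camp* were at 0 in both, and the list summed to 15.9 and 8.41 CPM. Because UMI counts at the 3' end were not set per length, levels are compared between cells, not between genes. The share of *Lyz1* in the lysozyme UMIs is a share of counts.

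Over all kept cells *Ear2* and the lysozymes were higher and *Rnase4* and *Ang* lower in the HFD library. Among genes with at least 100 UMIs over both libraries, 1 of 6 members, *Ear2*, was at least 2-fold higher in HFD, against 1.06% of the 8708 genes, and 2 of 6, *Rnase4* and *Ang*, were at least 2-fold lower, against 2.48%. The genes were picked with this contrast known, so nothing is read from these counts. The median log2 ratio of all 8708 genes was -0.01. Just past the 2-fold limit stood *Ear2*, at a log2 ratio of 1.04, and just short of it *Lyz1*, at 0.89.

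*Ear2*, which encodes an eosinophil-associated ribonuclease, had 10152 UMIs in CD (826 CPM, 810 to 843) and 13784 in HFD (1705 CPM, 1676 to 1733), a 2.06-fold difference (log2 1.04, 1.01 to 1.08). A UMI of *Ear2* was found in 1023 of 2364 CD cells (43.3%) and 1164 of 2021 HFD cells (57.6%). When 800 UMIs were drawn from every cell, leaving aside 30 CD and 147 HFD cells with fewer, the shares were 23.9% (22.2 to 25.7%) and 42.3% (40.01 to 44.5%). The HFD library was thus higher both in CPM and in the share of cells at equal depth. Cells with at least 2 endothelial or lymphoid markers and no UMI of *Adgre1* or *Csf1r* were read as background for *Ear2* and the lysozymes. They numbered only 4 per library, with median depths of 3348.5 and 779.5 UMIs. *Ear2* had a UMI in 1 of these 4 in CD and 2 of 4 in HFD, *Lyz1* in 2 and 3, and *Lyz2* in all, whereas *Rnase4* and *Ang* had none in either. The interval of 1 of 4 runs from 0.631 to 80.6%, and that of 0 of 4 reaches 60.2%, so the background share is poorly known.

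*Ear1* and *Ear10*, the closest relatives of *Ear2* by coding sequence, had few UMIs. *Ear1* had 2 UMIs in 2 CD cells and 4 UMIs in 4 HFD cells, *Ear10* had 0 and 1, and *Ear6* had 0 in both. The interval of a count of 0 reaches 0.300 CPM in CD and 0.456 CPM in HFD. No fold is given for these 3 genes, which were at or near the floor of 3 UMIs (0.244 CPM in CD and 0.371 CPM in HFD). *Rnase2a*, the mouse relative of human eosinophil-derived neurotoxin, had 171 UMIs in CD (13.9 CPM, 11.9 to 16.2) and 186 in HFD (23.0 CPM, 19.8 to 26.6).

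*Rnase4* had 2901 UMIs in CD (236 CPM, 228 to 245) and 576 in HFD (71.2 CPM, 65.5 to 77.3), 3.32-fold less (log2 -1.73, -1.86 to -1.60). *Ang* had 750 UMIs in CD (61.1 CPM, 56.8 to 65.6) and 177 in HFD (21.9 CPM, 18.8 to 25.4), 2.79-fold less (log2 -1.48, -1.72 to -1.24). The neighbours that share a start thus differed between libraries in 1 direction and by overlapping intervals. Within a library *Ang* was seen in a larger share of cells with *Rnase4* than of cells without it, though most cells with *Rnase4* had no *Ang* UMI. In CD 34.8% of the 1254 cells with *Rnase4* also had *Ang*, against 9.91% of the 1110 cells without, at similar median depths of 4268.5 and 4860.5 UMIs. The HFD values were 15.9% of 395 and 5.35% of 1626 cells. Thinned to 800 UMIs they were 8.78% (6.45 to 11.6%) and 4.47% (3.57 to 5.52%) in CD, and 4.09% (1.66 to 8.25%) and 2.58% (1.88 to 3.45%) in HFD, where the intervals overlapped.

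*Lyz1* had 38361 UMIs in CD (3123 CPM, 3092 to 3154) and 46894 in HFD (5799 CPM, 5747 to 5852), a 1.86-fold difference (log2 0.89, 0.87 to 0.91). *Lyz2* had 154346 UMIs in CD (12565 CPM, 12502 to 12628) and 146332 in HFD (18096 CPM, 18003 to 18189), a 1.44-fold difference (log2 0.53, 0.52 to 0.54). *Lyz2* was seen in nearly every cell, 99.7% in CD and 99.6% in HFD. *Lyz1*, the Paneth cell lysozyme, was seen in 66.2% and 75.6%, and at 800 UMIs per cell in 38.1% (36.1 to 40.1%) and 59.2% (56.9 to 61.4%). Both lysozymes together made up 1.57% of all UMIs in CD and 2.39% in HFD.

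The cells were next read by marker gates, each a cell with at least 1 UMI of the gene named, so that gates overlapped and depended on depth. Timd4+ cells (368 in CD and 72 in HFD), Lyve1+ cells (1172 and 415) and Folr2+Lyve1- cells (872 and 581) carry genes of resident macrophages. Ccr2+ cells (1326 and 1131) carry the chemokine receptor of recruited monocytes, Plac8+ cells (42 and 73) a monocyte gene, and Ear2+ cells (1023 and 1164) were gated on a member itself. All 567 UMIs of stromal markers in Plac8+ cells of CD were in 1 of the 42 cells, which gave the gate 2076 CPM of them. In CD 62.1% of Ccr2+ cells were Ear2+, and in HFD 77.98%. The median depth ran from 4052.5 UMIs in Lyve1+ to 6337.5 in Plac8+ cells of CD, and from 2299 to 4965 UMIs in HFD, highest there in Ccr2+ cells. The 7 resident macrophage markers summed to 3719 CPM in CD and 1599 CPM in HFD, and the 8 monocyte markers to 2065 and 2664 CPM. These lists moved with the members between libraries, and their part in the results was not tested.

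**Figure D1:**
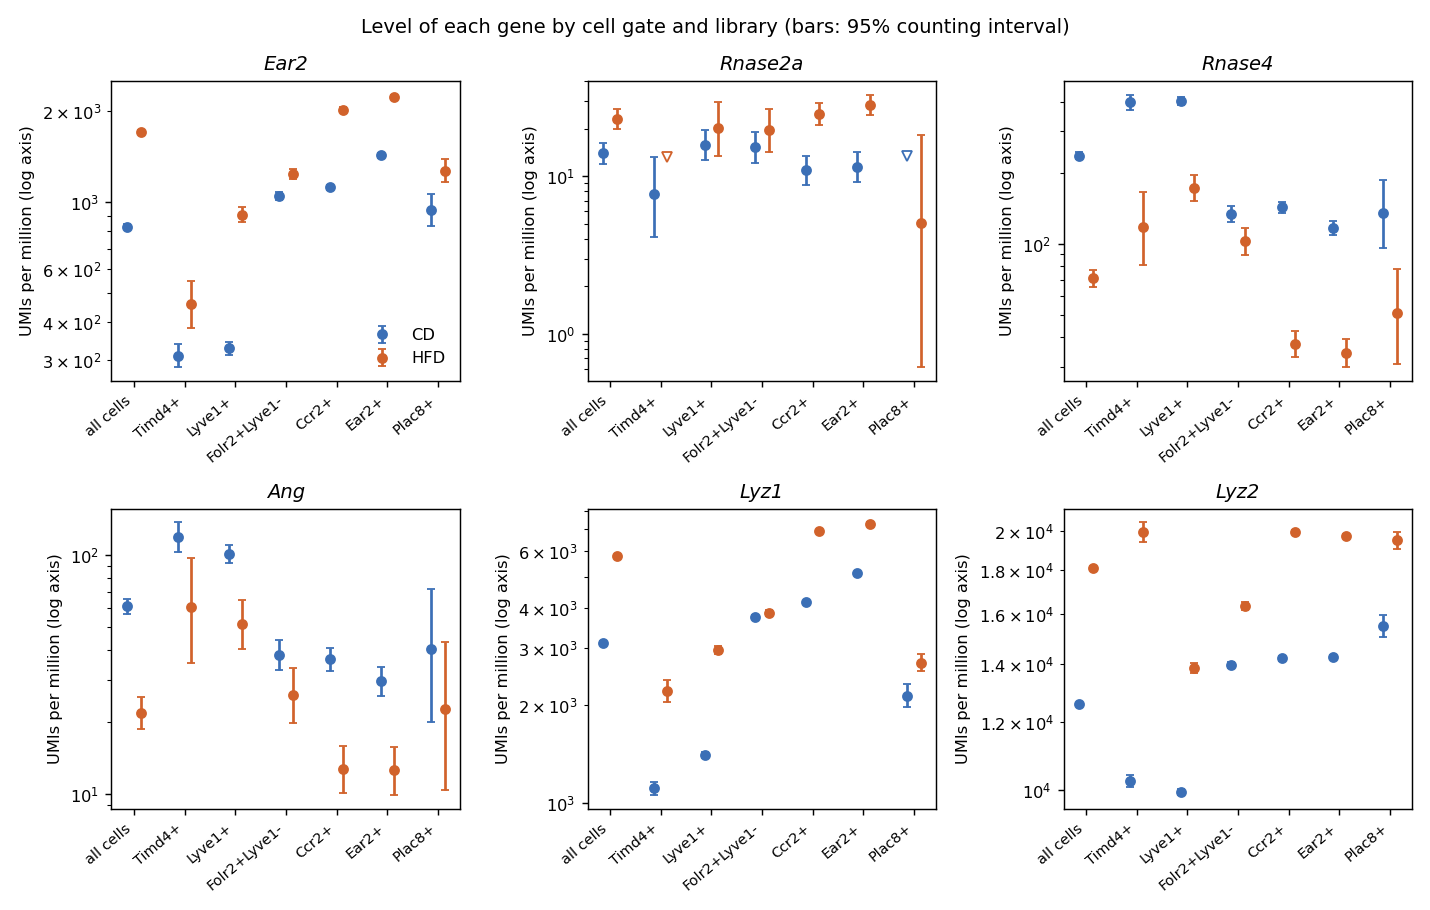
Level of each gene (y, CPM, log axis) in all kept cells and in the 6 gates (x), with CD in blue and HFD in orange. Points are summed UMIs of 1 library, bars are 95% Poisson intervals and open triangles mark the upper limit where the count was 0. *Ear2* and *Lyz1* were highest in Ear2+ cells, and *Rnase4* and *Ang* in Timd4+ and Lyve1+ cells of CD.

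*Ear2* went from 310 CPM in Timd4+ and 328 CPM in Lyve1+ cells of CD, whose intervals overlapped, to 941 in Plac8+, 1046 in Folr2+Lyve1- and 1116 in Ccr2+ cells, and 1424 in Ear2+ cells, where the gate used the gene. In the HFD library it was 460 CPM in Timd4+, 908 in Lyve1+, 1238 in Folr2+Lyve1-, 1268 in Plac8+, 2017 in Ccr2+ and 2222 in Ear2+ cells. The order was nearly the same in both libraries, with Folr2+Lyve1- and Plac8+ cells indistinguishable by their intervals. Cells that were both Lyve1+ and Ccr2+ (497 in CD and 154 in HFD) held 1606 of the 1763 *Ear2* UMIs of Lyve1+ cells in CD and 1126 of 1250 in HFD. Lyve1+ cells without *Ccr2* had 64.2 CPM (54.6 to 75.1) in CD and 210 CPM (174 to 250) in HFD, whereas those with *Ccr2* had 549 and 1434 CPM.

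*Lyz1* followed a like order. In CD it was 1107 CPM in Timd4+, 1402 in Lyve1+, 2142 in Plac8+, 3759 in Folr2+Lyve1-, 4176 in Ccr2+ and 5134 in Ear2+ cells. The HFD values were 2218, 2969, 2707, 3852, 6929 and 7296 CPM for the same gates. Plac8+ cells stood apart from the other *Ear2*-rich gates here, since their *Lyz1* was below that of Folr2+Lyve1- cells in both libraries while their *Lyz2* was the highest in CD. *Lyz2* ranged only from 9948 CPM in Lyve1+ to 15499 CPM in Plac8+ cells of CD, and from 13860.5 CPM in Lyve1+ to 19926 CPM in Timd4+ cells of HFD.

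The level of *Lyz2* in Timd4+ cells of HFD rested on 5 of the 72 cells. Cells with at least 2 of 4 peritoneal macrophage markers (*Gata6*, *Prg4*, *Icam2* and *Selp*), 8 in CD and 12 in HFD, had 35717 and 51715 CPM of *Lyz2*. The 4 markers summed to 82.7 CPM in Timd4+ cells of CD and 521 CPM in those of HFD. Without such cells, *Lyz2* in Timd4+ cells was 9229 CPM in CD (363 cells) and 12355 CPM in HFD (67 cells). The log2 ratio of HFD over CD there was 0.42 (0.36 to 0.48) in place of 0.96, and that of *Ear2* was 0.75 in place of 0.57.

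*Rnase4* and *Ang* had the opposite order. *Rnase4* was 403 CPM in Lyve1+ and 397 CPM in Timd4+ cells of CD, whose intervals overlapped, then 143 in Ccr2+, 135 in Plac8+ and 133 in Folr2+Lyve1- cells, again overlapping, and 116 in Ear2+ cells. The HFD library had 172 CPM in Lyve1+, 118 in Timd4+, 102.5 in Folr2+Lyve1-, 50.6 in Plac8+, 37.6 in Ccr2+ and 34.3 in Ear2+ cells, with overlapping intervals for the first and second and for the last 3. *Ang* was 119 CPM in Timd4+ and 101 CPM in Lyve1+ cells of CD and 29.6 CPM in Ear2+ cells. In HFD it was 60.6 CPM in Timd4+, 51.6 in Lyve1+ and 12.6 in Ear2+ cells, the last on 78 UMIs. Among the 6 gates both ribonucleases of the shared locus thus had their highest values in Timd4+ and Lyve1+ cells. For *Rnase4* in HFD, Timd4+ cells (33 UMIs) were not separated from Folr2+Lyve1- cells by their intervals. In HFD, however, *Rnase4* was also 199 CPM in Folr2+Lyve1- cells without *Ccr2* and 176 CPM in the 200 cells of no gate. *Ang* was 56.3 CPM in the latter, and these intervals overlapped those of Lyve1+ cells. The 200 cells were shallow, with a median of 1008 UMIs against 2299 in Lyve1+ cells. Erythroid markers had 7591 UMIs in all HFD cells and at most 111 in any gate, so most lay in these 200 cells. At 800 UMIs per cell *Rnase4* had a UMI in 30.9% (28.2 to 33.6%) of Lyve1+ and 13.2% (11.4 to 15.1%) of Ccr2+ cells in CD, and in 16.7% (13.2 to 20.7%) and 4.59% (3.44 to 5.997%) in HFD. The shares without thinning were 70.5 and 42.4% in CD, and 35.9 and 14.7% in HFD.

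Ccr2+ cells were compared with Lyve1+ cells inside each library, leaving out the 497 CD and 154 HFD cells in both gates. In CD, 2 of 6 members, *Ear2* and *Lyz1*, were at least 2-fold higher in Ccr2+ cells, against 6.02% of 6426 genes, and 2 of 6, *Rnase4* and *Ang*, were at least 2-fold lower, against 9.55%. In HFD 4 of 5 members, *Ear2*, *Lyz1*, *Lyz2* and *Rnase2a*, were higher, against 6.67% of 5386 genes, and *Rnase4* was lower, against 9.91%. *Ang*, with 98 UMIs, was below the limit of 100 there. All genes tested had a median log2 ratio of -0.12 in CD and -0.13 in HFD, which was not subtracted from the ratios.

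*Ear2* was 1403 CPM in Ccr2+ and 64.2 CPM in Lyve1+ cells of CD (log2 4.45, 4.22 to 4.69), and 2102 and 210 CPM in HFD (log2 3.33, 3.07 to 3.59). *Lyz1* was 5185 and 463 CPM in CD (log2 3.49, 3.40 to 3.57) and 7255 and 683 CPM in HFD (log2 3.41, 3.27 to 3.55). The counting intervals of the 2 libraries overlapped for *Lyz1* and not for *Ear2*. Over the alternatives the ratio of *Ear2* ran from 2.24 to 4.55 in CD and from 1.27 to 3.75 in HFD. That of *Lyz1* ran from 1.11 to 4.16 and from 1.38 to 3.51. A difference between the libraries in these ratios was not tested. *Rnase4* was 65.9 CPM in Ccr2+ and 533 CPM in Lyve1+ cells of CD (log2 -3.02, -3.19 to -2.85) and 29.7 and 279 CPM in HFD (log2 -3.23, -3.55 to -2.91). *Ang* was 19.9 and 138 CPM in CD (log2 -2.79) and 9.83 and 76.0 CPM in HFD (log2 -2.95, on 53 and 45 UMIs). *Lyz2*, the macrophage lysozyme, differed less, with log2 ratios of 0.90 in CD and 1.17 in HFD. When each cell was instead given to 1 gate only, Plac8+ first, then Ear2+, then Ccr2+, so that no Ccr2+ cell held *Ear2*, the log2 ratio of *Lyz1* was 1.11 in CD and 1.59 in HFD, and that of *Rnase4* was -0.88 and -1.22. With exclusive gates in the order *Timd4*, *Lyve1*, *Folr2*, *Ccr2*, no Ccr2+ cell held any of the first 3 genes, while Lyve1+ cells with *Ccr2* were kept. The log2 ratio of *Ear2* was then 2.24 in CD and 1.27 in HFD. Its level on the Lyve1+ side was 365 CPM (886 cells) in CD and 967 CPM (387 cells) in HFD, in place of 64.2 and 210 CPM.

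Folr2+Lyve1- cells were themselves partly Ccr2+, 568 of 872 in CD and 289 of 581 in HFD, and those with *Ccr2* held 5034 of the 5196 *Ear2* UMIs of the gate in CD. Without *Ccr2* they had 164 CPM of *Ear2*, 546 of *Lyz1* and 344 of *Rnase4* in CD, nearer to Lyve1+Ccr2- cells than to Ccr2+Lyve1- cells for these 3 genes. With *Ccr2* they had 1264, 4555 and 81.4 CPM. For the whole gate in CD, 2 of 6 members (*Ear2* and *Lyz1*) were at least 2-fold higher there than in Lyve1+ cells, against 1.92% of 7184 genes, and 2 of 6 (*Rnase4* and *Ang*) lower, against 2.24%. In HFD 0 of 5 passed either way, against 0.223% and 0.471% of 4036 genes. The log2 ratio of *Rnase4* was -1.59 (-1.72 to -1.47) in CD and -0.75 (-1.02 to -0.48) in HFD, and that of *Ear2* was 1.67 (1.59 to 1.75) and 0.45 (0.35 to 0.55). Plac8+ cells differed from Lyve1+ cells in CD with 1 of 5 members higher (*Ear2*, 5.3% of 5432 genes) and 2 of 5 lower (*Rnase4* and *Ang*, 18.1%). In HFD 0 of 4 were higher (2.38% of 2104 genes) and 1 of 4 was lower (*Rnase4*, 9.03%). Plac8+ cells without *Lyve1* had less *Rnase4* than Lyve1+ cells, on 21 UMIs in CD and 12 in HFD. The log2 ratios were -2.01 (-2.70 to -1.39) and -2.31 (-3.28 to -1.48). Against Ccr2+ cells, leaving out cells in both gates, the few remaining Plac8+ cells had more *Rnase4*. It was 400 against 144 CPM in CD (12 Plac8+ cells with 23 UMIs, log2 1.47, 0.81 to 2.06). For HFD it was 167 against 37.9 CPM (17 Plac8+ cells with 9 UMIs, log2 2.14, 0.99 to 3.09). The 12 CD cells included the 1 cell with all 567 stromal UMIs, since all Ccr2+ cells of CD held 292. Lyve1+ cells of CD held 46, so that cell was also among the 33 Plac8+ cells without *Lyve1*. Its part in these ratios was not tested.

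The difference between diets was then read inside each gate. *Rnase4* was lower in HFD in all 6 gates, by a log2 ratio of -1.92 in Ccr2+, -1.76 in Ear2+ and Timd4+, -1.42 in Plac8+, -1.23 in Lyve1+ and -0.38 (-0.61 to -0.16) in Folr2+Lyve1- cells. The value in Plac8+ cells rested on 37 and 20 UMIs. It turned to 0.79 at 800 UMIs per cell, where only 2 of 42 CD and 3 of 73 HFD cells had a UMI. *Ang* had -1.52 in Ccr2+, -1.23 in Ear2+, -0.97 in Timd4+ (on 17 HFD UMIs), -0.96 in Lyve1+ and -0.55 in Folr2+Lyve1- cells. *Ear2* was higher in HFD by 1.47 (1.36 to 1.57) in Lyve1+, 0.85 in Ccr2+, 0.57 in Timd4+, 0.43 in Plac8+ and 0.24 (0.18 to 0.31) in Folr2+Lyve1- cells. *Lyz1* differed by 1.08 in Lyve1+, 1.003 in Timd4+, 0.73 in Ccr2+, 0.51 in Ear2+ and 0.34 in Plac8+ cells, and by 0.04 (-0.00208 to 0.07) in Folr2+Lyve1- cells. Over the alternatives this value for *Lyz1* ran from -0.52 with gates of at least 2 UMIs to 1.08 with exclusive gates in reverse order. The values for *Ear2* in Timd4+ and Folr2+Lyve1- cells changed sign with the gating. They were -0.60 and -0.32 with gates of at least 2 UMIs. With gates set on a random part of the UMIs of each cell they were -1.41 and -0.02. The -1.41 rested on 6 *Ear2* UMIs in 35 HFD cells, against 129 in 203 CD cells.

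The ratios in Folr2+Lyve1- cells also moved when the gate was split by *Ccr2*, which was seen in 65.1% of these cells in CD and 49.7% in HFD. Without *Ccr2* (304 CD and 292 HFD cells) the log2 ratio of HFD over CD was 1.08 (0.78 to 1.38) for *Ear2*, 1.11 (0.94 to 1.27) for *Lyz1*, -0.79 (-1.10 to -0.49) for *Rnase4* and -0.90 (-1.56 to -0.28) for *Ang*. With *Ccr2* (568 and 289 cells) these were 0.33 (0.26 to 0.40), 0.10 (0.07 to 0.14), -0.33 (-0.66 to -0.0018) and -0.54 (-1.20 to 0.08). Each was smaller in size there, but for *Rnase4* and *Ang* the intervals with and without *Ccr2* overlapped. Cells without *Ccr2* were shallower, with medians of 2768.5 UMIs in CD and 1609 in HFD against 6488.5 and 5124, and the part of depth in the split was not tested. In Lyve1+ cells without *Ccr2* the values were 1.71 for *Ear2*, 0.56 for *Lyz1*, -0.94 for *Rnase4* and -0.86 for *Ang*.

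At least 2-fold higher in HFD were 2 of 6 members in Lyve1+ cells (*Ear2* and *Lyz1*, 0.972% of 6073 genes), 1 of 6 in Ccr2+ cells (*Rnase2a*, 0.763% of 7867 genes) and 1 of 6 in Ear2+ cells (*Rnase2a*, 0.582% of 7559 genes). At least 2-fold lower were 1 of 6 in Lyve1+ cells (*Rnase4*, 1.68%), and 2 of 6 (*Rnase4* and *Ang*) in Ccr2+ cells (2.12%) and in Ear2+ cells (1.39%). Folr2+Lyve1- cells had 0 of 6 in both directions (0.477% higher and 1.19% lower of 6075 genes). In Timd4+ cells 1 of 5 was higher (*Lyz1*, 1.87% of 2460 genes) and 1 of 5 lower (*Rnase4*, 4.35%). Plac8+ cells had 0 of 3 in both directions (1.72% each of 870 genes).

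**Figure D2:**
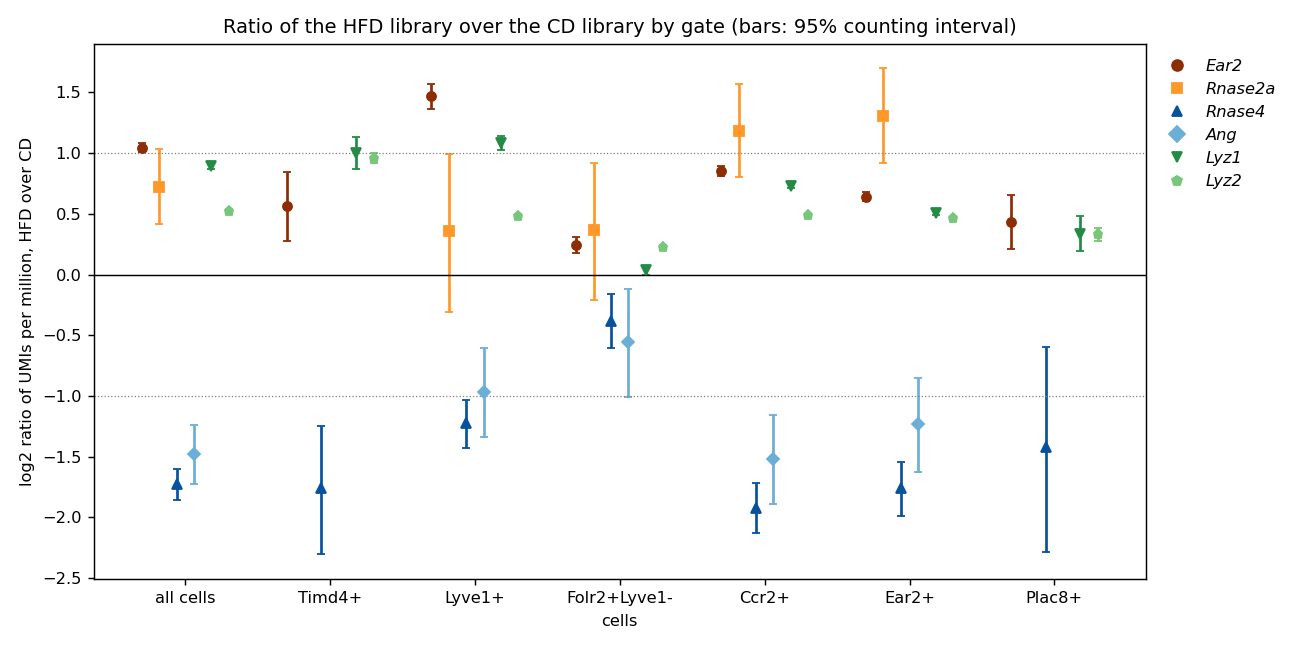
Log2 ratio of the HFD library over the CD library (y) for each gene in all kept cells and in the gates (x), with bars for 95% exact binomial intervals and dotted lines at 2-fold. Only ratios with at least 20 UMIs in each library are drawn. *Rnase4* and *Ang* lay below 0 in every gate drawn, and *Ear2* and *Lyz2* above it.

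HFD cells were shallower, so the ratios were also read among cells with like numbers of detected genes. *Rnase4* was lower in HFD in all 6 bins, with log2 ratios of -0.95 in cells of 200 to 699 genes, -0.67 in 700 to 999, -1.53 in 1000 to 1499, -2.74 in 1500 to 1999, -2.95 in 2000 to 2499 and -2.03 in 2500 to 3500. *Ear2* had 0.01 (-0.44 to 0.48) in the lowest bin, then 1.06, 1.87, 1.73, 0.98 and 0.65. *Lyz1* had 0.73, 0.66, 1.90, 1.73, 0.995 and 0.38, and *Lyz2* 0.31, 0.53, 0.81, 0.80, 0.58 and 0.34. Except for *Ear2* in the lowest bin, whose interval included 0, these 4 genes kept their direction at every depth, with the largest ratios of *Ear2* and the lysozymes between 1000 and 1999 genes. The lowest bin held 103 CD and 457 HFD cells.

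*Lyz1* made up 19.9% (19.7 to 20.1%) of the lysozyme UMIs in CD and 24.3% (24.1 to 24.5%) in HFD. The share was 5.22% in Lyve1+Ccr2- cells of CD and 7.05% in those of HFD, and 24.8% and 26.4% in Ccr2+Lyve1- cells. In Timd4+ cells it was 9.75% and 10.0%, in Plac8+ cells 12.1% and 12.2%, and in Ear2+ cells 26.5% and 27.0%. The share therefore differed little between diets in these 3 gates, but without the cells with peritoneal markers it was 10.8% and 15.5% in Timd4+ cells. In Lyve1+ cells it was 12.4% (12.1 to 12.6%) in CD and 17.6% (17.2 to 18.1%) in HFD, and in Folr2+Lyve1- cells 21.2% (20.9 to 21.5%) and 19.1% (18.7 to 19.4%). The lower share in HFD in the latter turned with *Ccr2*, since it was 5.68% and 10.1% in Folr2+Lyve1- cells without *Ccr2* and 23.1% and 20.8% in those with it. As a mean over cells in place of a sum, the share over all cells was 16.4% in CD and 22.2% in HFD.

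Single cells with at least 20 lysozyme UMIs numbered 1680 of 2364 in CD and 1198 of 2021 in HFD. This limit counted *Lyz1* itself and left out a larger part of the shallower HFD cells, and its effect on the shares was not tested. The median share of *Lyz1* was 3.85% in CD, with quartiles of 0.254 and 20.7%, and 17.0% in HFD, with quartiles of 2.94 and 34.0%. The highest cells reached 69.95% and 75%, and 72 CD and 57 HFD cells had over 50%, so that *Lyz1* exceeded *Lyz2* in them. At the other end, 420 CD cells (25%) and 157 HFD cells (13.1%) had no *Lyz1* UMI among at least 20. The shares formed a continuous range with the highest peak below 5%, which held 942 CD cells (56.1%) and 397 HFD cells (33.1%). Further up, the HFD bins rose again, from 5.93% of cells at 10 to 15% to 8.35% at 25 to 30%. A smaller rise in CD went from 3.45% of cells at 25 to 30% to 5.06% at 30 to 35%. In Ear2+ cells the median was 18.3% in CD and 24.5% in HFD, against 2.48% and 3.94% in Lyve1+ cells.

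**Figure D3:**
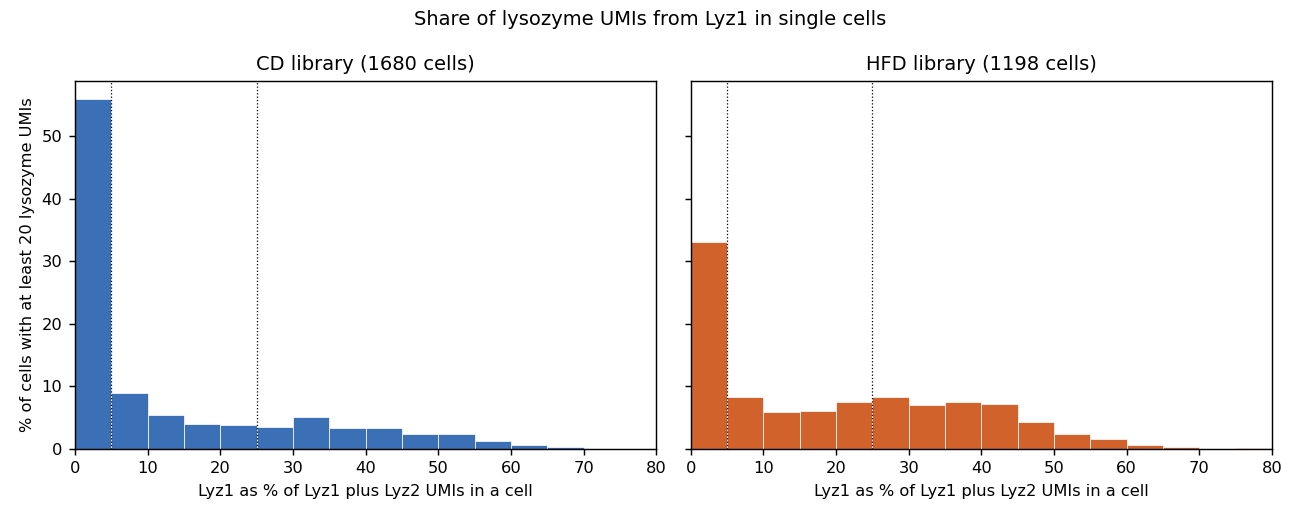
Share of lysozyme UMIs from *Lyz1* in single cells (x, %, bins of 5) against the percentage of cells with at least 20 lysozyme UMIs (y), for the CD library (1680 cells) and the HFD library (1198 cells). Dotted lines stand at 5% and 25%; 56.1% of CD cells and 33.1% of HFD cells lay below 5%.

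Cells were placed in 3 ranges by this share, under 5%, 5 to 25%, and 25% or more, which are ranges and not cell types. In CD they held 942, 370 and 368 cells and in HFD 397, 332 and 469, with median depths of 4904, 6414 and 7327.5 UMIs, and 3907, 5693.5 and 6093 UMIs. *Lyz2* was nearly level across them, at 12782, 14738 and 14801 CPM in CD and 20446, 21313 and 19789 CPM in HFD. *Ear2* was 295, 1131 and 1820 CPM in CD and 829, 1898 and 2660 CPM in HFD. *Rnase4* went the other way, at 333, 153 and 50.2 CPM in CD and 107, 35.6 and 17.6 CPM in HFD, as did *Ang*, at 88.9, 35.1 and 10.4 CPM in CD and 43.1, 16.8 and 3.05 CPM in HFD. *Lyz1* thus varied with *Ear2* and against *Rnase4* and *Ang* in both libraries, while its paralog varied less. *Lyve1* and *Folr2*, genes of resident macrophages, were 417 and 1696 CPM in the lowest range of CD and 55.6 and 227 CPM in the highest.

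**Figure D4:**
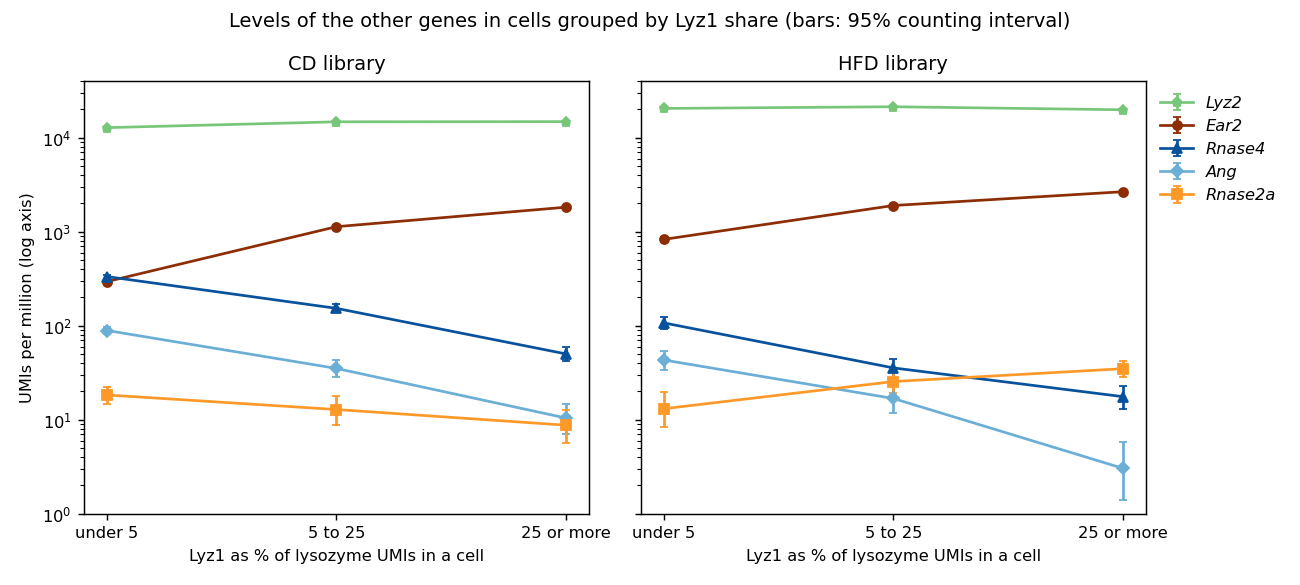
Levels (y, CPM, log axis) of *Lyz2*, *Ear2*, *Rnase4*, *Ang* and *Rnase2a* in cells grouped by the share of *Lyz1* in their lysozyme UMIs (x), with 95% Poisson intervals. *Ear2* was higher and *Rnase4* and *Ang* lower in each range of higher share, in both libraries. *Lyz2*, which is part of the share that set the ranges, stayed between 12782 and 14801 CPM in CD.

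*Ear2* and *Lyz1* were also seen together in single cells. In CD 84.0% (81.6 to 86.2%) of cells with *Ear2* had *Lyz1*, against 52.6% (49.9 to 55.3%) of cells without, and in HFD 87.0% and 60.1%. Cells with *Ear2* were deeper, with medians of 6283 against 3500 UMIs in CD and 4873 against 1648 in HFD. At 800 UMIs per cell the shares were 71.9% (67.9 to 75.6%) and 27.5% (25.4 to 29.6%) in CD, and 79.5% (76.6 to 82.3%) and 44.3% (41.3 to 47.3%) in HFD, so the difference was not smaller at equal depth. *Ear2* was seen in a smaller share of cells with *Rnase4* than of cells without it. At 800 UMIs, 6.79% (4.75 to 9.35%) of CD cells with *Rnase4* had *Ear2*, against 28.6% (26.5 to 30.7%) of those without, and in HFD 19.3% (13.7 to 26.0%) and 44.6% (42.2 to 47.0%).

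Because a gate on *Ear2* selects cells by the gene that is then read, the UMIs of each cell were also split at random, with the gate set in 1 part and the levels read in the other. Cells with *Ear2* in the first part (826 in CD and 981 in HFD) had 1570 and 2310 CPM of *Ear2* in the second, against 82.6 and 199 CPM in cells at 0 in the first. *Lyz1* was 5740 against 517 CPM in CD and 7782 against 1080 CPM in HFD. *Rnase4* was 84.8 against 394 CPM in CD and 26.0 against 164 CPM in HFD. The order of the members by *Ear2* therefore stood also in UMIs that had not set the gate.

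*Rnase2a* was held by fewer cells than *Ear2*, *Rnase4*, *Ang* or the lysozymes. It had a UMI in 89 CD cells (3.76%) and 105 HFD cells (5.20%), and the highest cell held 12 UMIs in CD and 11 in HFD. The 10 cells with the most held 43.9% of its UMIs in CD and 29.0% in HFD, against 6.72% and 4.91% for *Ear2*. The 1% of cells with the most held 61.4% and 45.2% of its UMIs, against 11.9% and 24.9% for *Ang*, whose counts were as low in HFD. Cells with *Rnase2a* differed between the libraries, as did the cells without it. In CD 50 of 89 also had *Ear2* (56.2%, 45.3 to 66.7%) and 61 had *Rnase4* (68.5%, 57.8 to 77.97%), and their *Rnase4* level was 365 CPM. In HFD 96 of 105 had *Ear2* (91.4%, 84.4 to 96.0%) and 19 had *Rnase4* (18.1%, 11.3 to 26.8%), at 35.4 CPM. Of cells without *Rnase2a*, 42.8% in CD and 55.7% in HFD had *Ear2*, and 52.4% and 19.6% had *Rnase4*. The median depth of all cells with *Rnase2a* was 5425 UMIs in CD and 7570 in HFD, against 4422 and 2581.5 in the other cells. At 800 UMIs per cell, 8 of 27 CD cells with *Rnase2a* had *Ear2* (29.6%, 13.8 to 50.2%), against 23.8% of the others. In HFD it was 8 of 15 (53.3%, 26.6 to 78.7%) against 42.2%. Both intervals included the share of the other cells, so no excess of *Ear2* was seen at equal depth.

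The level of *Rnase2a* was also read by gate. In Ccr2+Lyve1- cells it was 10.2 CPM in CD and 24.3 CPM in HFD, and in Lyve1+Ccr2- cells 20.04 CPM in CD and 10.1 CPM in HFD, the last on 6 UMIs. In Timd4+ cells it had 13 UMIs in CD (7.73 CPM) and 0 in HFD, where the interval of 0 reaches 13.2 CPM, and no fold is given. Plac8+ cells had 0 and 2 UMIs. Over all cells its ratio of HFD over CD, log2 0.72 (0.42 to 1.03), turned to -0.04 as a mean over cells and to -0.42 at 800 UMIs per cell, so no direction is given for it.

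**Figure D5:**
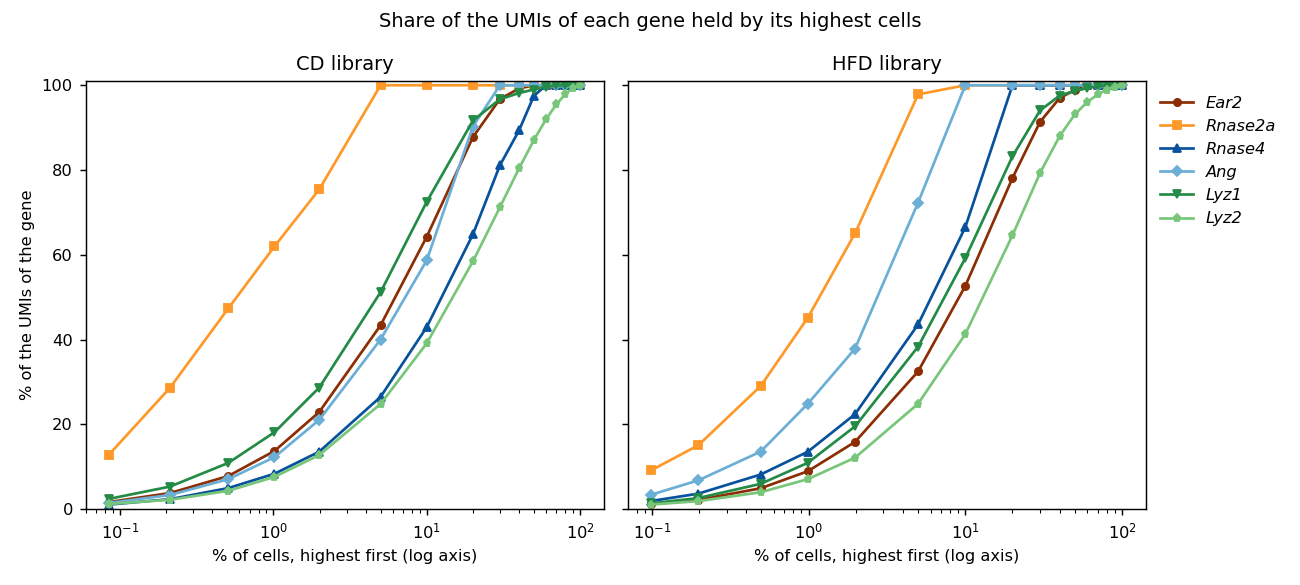
Percentage of the UMIs of each of 6 genes (y) held by the cells with the most UMIs of it (x, % of kept cells, log axis), for the CD and HFD libraries. A gene with few UMIs is held by few cells by counting alone; among the 6 genes drawn, which leave out *Ear1*, *Ear6* and *Ear10*, *Rnase2a* lay highest, with 61.4% of its UMIs in the top 1% of cells in CD and 45.2% in HFD.

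Of 22 further genes of the RNase A and lysozyme families on a fixed list, 21 were in the files and 17 of these had 0 UMIs in both libraries. *Rnase6*, an antimicrobial ribonuclease of myeloid cells, was the only one with at least 20 UMIs, at 54.1 CPM (50.1 to 58.4) in CD and 45.6 CPM (41.1 to 50.5) in HFD (log2 -0.25, -0.43 to -0.06). Its 665 and 369 UMIs did not pass the 2-fold limit. *Rnh1*, the cytosolic inhibitor that binds A-family ribonucleases, was 120 CPM in CD and 178 CPM in HFD (log2 0.58, 0.47 to 0.68). *Rnaset2a* and *Rnaset2b*, lysosomal ribonucleases of another family whose reads may be shared as near-identical copies, were 251 and 166 CPM, and 145 and 81.7 CPM (log2 -0.60 and -0.83).

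The genes with the most similar pattern were sought over 7 non-overlapping groups of cells in each library, 14 points in all, among 6381 genes with at least 100 UMIs in each library. The marker gates, Ear2+ among them, set these groups. The Plac8+ group and the cells of no gate therefore held no *Ear2* UMI by construction, which shaped the correlations of *Ear2*. The points came from 2 libraries, and the Plac8+ group held 1 CD and 3 HFD cells, so the correlations were also taken over the 12 groups of at least 20 cells, a choice made after seeing the data. For *Ear2* the closest were *Pparg*, a nuclear receptor of lipid metabolism (r = 0.99 over 14 and 0.98 over 12 points), *Arhgap4* (0.98 and 0.97) and *Hr* (0.98 and 0.97), and 3 of the first 5 genes were shared. These genes had low counts, with 131 UMIs in CD and 102 in HFD for *Pparg*, 194 and 159 for *Arhgap4*, and 250 and 302 for *Hr*. The 12 points kept the cells of no gate (30 in CD and 200 in HFD), where *Ear2* was 0 by construction. The 2 values of r for *Ear2* are therefore not independent. For *Lyz2* 2 of 5 were shared, *Rassf8* (0.97 and 0.95) and *Ndnf* (0.96 and 0.96). For *Lyz1*, *Rnase4* and *Ang* 0 of 5 were shared. Over the 14 points, the closest to *Rnase4* were *Slc9a9*, *Tspan4* and *Hpgd* (0.97 each). Those to *Lyz1* were *H2afj* (0.99), *Ndufa1* and *Dnajc15* (0.98 each), and those to *Ang* were *Gas6*, *Tfrc* and *S1pr1* (0.98 each). Over the 12 points, the closest to *Rnase4* were *Selenop* (0.98), *Csf1r* (0.97) and *Gas6* (0.97). Those to *Lyz1* were *Bcl2a1b* (0.97), *Rpl36al* (0.96) and *Il1b* (0.96), and those to *Ang* were *Nrp1* (0.96), *Agtrap* (0.95) and *Rasgrp3* (0.94). Among the members, *Rnase4* and *Ang* had r = 0.86 over 12 points and 0.66 over 14. *Lyz1* and *Rnase4* had r = -0.84 over 12 points and 0.50 over 14, so this relation rested on which groups were included. These values are descriptions with no test.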

How the data were processed

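Droplet-based 3' RNA sequencing (10x Genomics V2) was run on 1 library per diet. The authors deposited raw UMI counts for every barcode and gene, for which Cell Ranger 3.0.2, the mm10 genome and Ensembl annotation were used. Per the submitters' labels the 3 mice of a diet were pooled, so no test between diets was possible. Barcodes with 200 to 3500 genes and at most 10% mitochondrial UMIs were kept. Doublets were limited only by the 3500-gene limit. Counts were summed over the cells named and divided by all their UMIs. Cells in both gates were left out of contrasts between gates, except that Folr2+Lyve1- and Lyve1+ cells never overlap. Genes with at least 100 UMIs over both sides of a comparison were counted at 2-fold. Intervals were exact (95%), from scipy 1.17.1 with numpy 2.4.6 and pandas 2.3.3 in Python 3.11.15. Zero counts were given a floor of 3 UMIs. Thinning to 800 UMIs used a fixed seed of 1, and the random split used another fixed seed. Scripts were tested on simulated data. Gene positions are those of GENCODE on GRCm38. The members, marker lists and family list were chosen with earlier results of these data known. The genes named beside them were the 5 non-members with the highest correlation with a member. Alternatives changed the filters, the gates, the thinning, the scaling and the averaging.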

Additional observations from a re-analysis of the deposited data

Results flagged for a closer look

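*Ear2* differed between Timd4+ and Lyve1+ cells in opposite directions in the 2 libraries. Cells in both gates were left out, 286 of the 368 Timd4+ cells in CD and 28 of 72 in HFD. The log2 ratio of Timd4+ over Lyve1+ cells was 0.85 (0.65 to 1.05) in CD, from 82 and 886 cells, and -0.66 (-0.96 to -0.37) in HFD, from 44 and 387 cells. Over the whole gates of CD it was 310 and 328 CPM, with overlapping intervals. In HFD 5 Timd4+ cells had at least 2 peritoneal markers. Without them *Ear2* in the whole gate was 536 in place of 460 CPM, and the contrast was not read without them. *Rnase2a* also had opposite directions, with a log2 ratio of Ccr2+ over Lyve1+ cells of -0.97 (-1.54 to -0.39) in CD and 1.26 (0.10 to 2.73) in HFD, where Lyve1+ cells held 6 UMIs. With 1 library per diet, neither difference between the libraries was tested.

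Barcodes over the mitochondrial limit, which entered no comparison, numbered 2043 in CD, with a median of 896 UMIs, and 1120 in HFD, with a median of 739. The members were present in them too. *Ear2* was 257 CPM in CD and 582 CPM in HFD there (log2 1.18), and *Rnase4* was 255 and 102.1 CPM (log2 -1.32). The log2 ratio of HFD over CD was -1.03 for *Ang*, 0.83 for *Lyz1* and 0.39 for *Lyz2*. All 5 genes had the same direction as in the kept cells.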

How the results depend on the processing

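No paired analysis was possible because each diet had 1 library of pooled mice. The median-of-ratios scaling moved log2 ratios by at most 0.04. The count of members past 2-fold between diets was 3, and at 800 UMIs per cell it was 2. That of Ccr2+ over Lyve1+ cells in CD, 4, was 1 with exclusive gates in reverse order and 3 to 5 otherwise. In HFD, 5 became 6 with 20% mitochondrial UMIs, 3 with at least 1000 genes, 3 with exclusive gates in the listed order, 2 in reverse order and 3 with the gate on a random part of the UMIs, and it was 4 or 5 otherwise. The *Lyz1* share of 19.9% in CD was 19.7% with 20% mitochondrial UMIs, 16.4% as a mean over cells, 16.6% at 800 UMIs and 20.5% without cells bearing markers of other cell types. The 24.3% in HFD was 24.6% with at least 1000 genes, 22.2% as a mean over cells, 22.3% at 800 UMIs and 25.8% without such cells. Of 49 single ratios under up to 12 alternatives (543 values), 40 kept their sign. Of the 9 HFD over CD ratios that did not, 3 had intervals that included 0, *Lyz1* in Folr2+Lyve1- cells (-0.52 to 1.08) and *Rnase2a* in Lyve1+ cells (-1.86 to 0.67) and Folr2+Lyve1- cells (-2.76 to 0.54). The other 6 gave 9 values of opposite sign: *Rnase2a* in all cells (-0.0428 as a mean over cells, -0.42 at 800 UMIs), *Rnase4* in Plac8+ cells (0.79 at 800 UMIs), *Ear2* in Timd4+ cells (-0.60 with 2 UMIs, -1.41 by random part) and in Folr2+Lyve1- cells (-0.32 and -0.0197), and, with exclusive gates, *Ang* in Ccr2+ cells (0.00649, listed order) and *Rnase2a* in Ccr2+ cells (-1.22, reverse order). The 0.79 rested on 2 CD and 3 HFD cells with a UMI, and the -1.41 on 6 HFD UMIs. The cause of these changes was not tested. HFD cells were shallower, which limits what counts of rare genes such as *Rnase2a* can show.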
